A study of Mus musculus with 8 samples.

Results

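DNA replication and the making of its building blocks were followed through 45 mouse genes: the licensing factors, the replicative helicase, the sliding clamp and its loader, the DNA polymerases, the factors that join the copied strands, the enzymes of deoxynucleotide synthesis, E-type cyclins, and proteins that copy chromatin behind the fork. Their probes were found by gene symbol in the array's platform annotation, with no use of measured values. The genes themselves were chosen with earlier results of these data known. Of the 45 genes, 42 had at least 1 probe, and 67 of the 25697 probes on the array belonged to them; Gins1, Gins2 and Rfc3 were not analysed here. A total of 36 had a probe above the filter on dim signals (a mean log2 intensity above 6.72, the median of all probes) and were tested among 9664 features.

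RNA came from dorsal root ganglia, the clusters of sensory neurons and glia beside the spinal cord, of mouse embryos at E12.5. The Erk1/2CKO(Wnt1) group (4 samples) is called the mutant here. As its name gives it, it carries a conditional loss of the kinases Erk1/2 through Cre recombinase driven by Wnt1. This Cre acts in the neural crest and so in neurons and glia of the ganglia, but not in vessel, blood or immune cells of the same tissue. The name alone does not say whether both kinases are lost only in cells where Cre acts. The wild-type group (4 samples) is given no further genotype in the labels, and all 8 samples share the stage and tissue. The ganglia came from 3 litters that are not tied to samples, so some samples share a litter, and the labels do not say how many embryos went into a sample. Arrays are numbered by the replicate in the labels.

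Before a cell divides it must copy its genome once. Origins are licensed in G1, when ORC, Cdc6 and Cdt1 load the MCM helicase; at the G1/S transition cyclin E with its kinase helps to fire origins, Cdc45 and GINS join the helicase, and polymerases alpha, delta and epsilon copy the strands on the PCNA clamp. Most of these genes are transcribed under the E2F factors, which the Rb family holds back until cells commit to S phase, so their RNA marks dividing cells. In embryonic ganglia of this age dividing progenitors and glial precursors lie beside sensory neurons that have left the cycle.

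To show the DNA through which genes of this kind are commonly switched on, the RefSeq promoter windows (GRCm38.p6, 250 bases before to 50 bases after a transcript start) were searched on both strands for the E2F-type words TTTCCCGC, TTTCGCGC, TTTGCCGC and TTTGGCGC. Of 44 windows of 37 matched replication genes, 13 (29.5%) held at least 1 of these words, against 744 of all 32851 windows (2.26%). The shorter word CCAAT, bound by NF-Y, was in 26 of the 44 windows (59.1%) and in 12289 of all windows (37.4%). These are matches of letters, not tested sites, and the windows of the other genes may hold variants that were not searched. Capitals mark the E2F-type words in the sequences below, each written 5′ to 3′ on the gene's strand. For Mcm5 (a helicase subunit, plus strand, chr8:75109259-75109467) the 209 bases of the window that lie before its outermost RefSeq start are shown.
Mcm5: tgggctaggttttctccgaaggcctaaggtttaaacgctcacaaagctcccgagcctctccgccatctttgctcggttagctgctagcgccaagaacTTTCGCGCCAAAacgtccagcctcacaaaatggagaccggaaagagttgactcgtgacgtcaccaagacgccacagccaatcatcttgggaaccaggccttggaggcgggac
The Mcm5 capitals hold 2 overlapping words, TTTCGCGC and, on the opposite strand, TTTGGCGC. For the other genes 24 bases at the word are shown. In Cdc6 (a licensing factor, plus strand, chr11:98908005-98908028) and Uhrf1 (a reader of hemimethylated DNA, plus strand, chr17:56304120-56304143, the window of 1 of its 2 starts) the whole window lies inside the RefSeq gene span, downstream of the outermost start.
Cdc6: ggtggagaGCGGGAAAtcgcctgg
Uhrf1: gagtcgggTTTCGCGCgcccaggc
In Cdt1, another licensing factor (plus strand, chr8:122568039-122568062), and in Pold1, the catalytic subunit of polymerase delta (minus strand, chr7:44548766-44548789), the word lies within the 50 bases after the start.
Cdt1: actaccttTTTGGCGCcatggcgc
Pold1: ggcgtatcttgtgGCGGGAAAagc

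Before the results, the arrays fall into sets that touch all of them. The median raw intensity was 138 to 147 on the mutant arrays and 144 to 159 on the wild-type arrays. Across all features, wild-type arrays 1 and 2 had a correlation of 0.994 with each other, arrays 3 and 4 one of 0.993, and arrays of different pairs 0.975 to 0.981 (genes are not independent). The pairs were recognised from the arrays' values, since the labels name no such pairs. The mutant arrays correlated with each other at 0.983 to 0.993. The neuronal markers Isl1, Pou4f1 and Tlx3, which define sensory neurons, were above the filter on all 8 arrays. By the file headers all 8 arrays sat on 1 slide, with each group in adjoining positions. An effect of position thus cannot be told apart from one of genotype. Wild-type arrays 1 and 2 sat at positions A and B, and arrays 3 and 4 at C and D. So an effect of position cannot be told apart from a difference between the wild-type pairs either.

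The comparison asks which replication genes have another RNA level in mutant than in wild-type ganglia. None of the 36 tested genes passed the test (limma, adjusted p under 0.05; 0 lower and 0 higher, with adjusted p between 0.158 and 0.999), while 1.13% of all features were called lower and 1.38% higher. At an unadjusted p under 0.05 stood 8 of the 36 (Mcm10, Pcna, Pola2, Prim2, Rrm1, Tyms, Tk1 and Ccne2), against 18.2% of all features. The differences nevertheless ran almost all one way: 35 of 36 were below 0, against 49.6% of all features, with a median log2 difference of -0.36 (mutant minus wild-type; range -0.77 to 0.00) beside a median of 0.0013 over all features. In bulk tissue, fewer cells of a type and less RNA per cell cannot be told apart. In only 1 gene, Ccne2, did the 4 mutant arrays all lie below the 4 wild-type arrays, where 5.67% of all features were separated in this way.

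**Figure D1:**
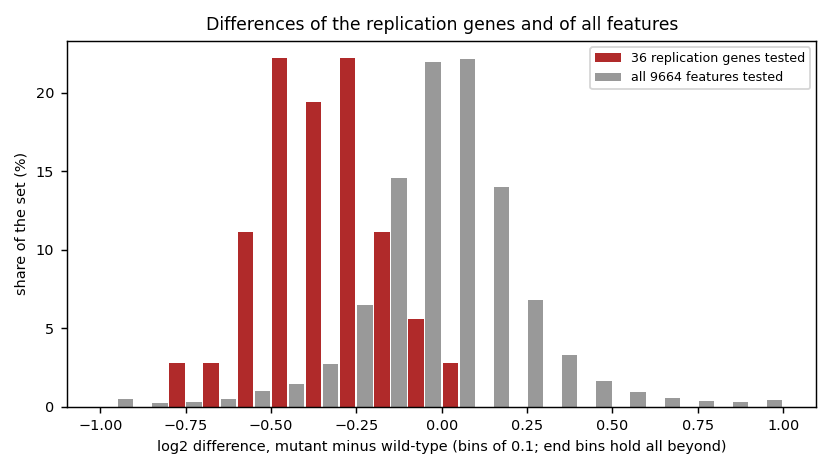
Share of the replication genes (red) and of all features tested (grey) in each bin of the log2 difference, mutant minus wild-type. The replication genes lie between -0.77 and 0.00 with a median of -0.36, while all features centre on 0.

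The shift went with 1 wild-type pair. In 35 of the 36 genes wild-type arrays 3 and 4 were both above the other 6 arrays, a pattern found in 15.0% of all features. The exception was Rpa3, a small subunit of the single-strand binding protein RPA. Wild-type arrays 1 and 2 often lay within the range of the mutant arrays: both fell inside it in 18 genes and at least 1 of them in 31. That count was not made over all features, so no background share stands beside it. The standard deviation (SD) between the 4 wild-type arrays exceeded that between the 4 mutant arrays in 35 of 36 genes, against 59.4% of all features, with medians of 0.11 in the mutant and 0.45 in the wild-type (0.12 and 0.15 over all features). The standard error (SE) of the difference had a median of 0.19 for the replication genes against 0.10 for all features.

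**Figure D2:**
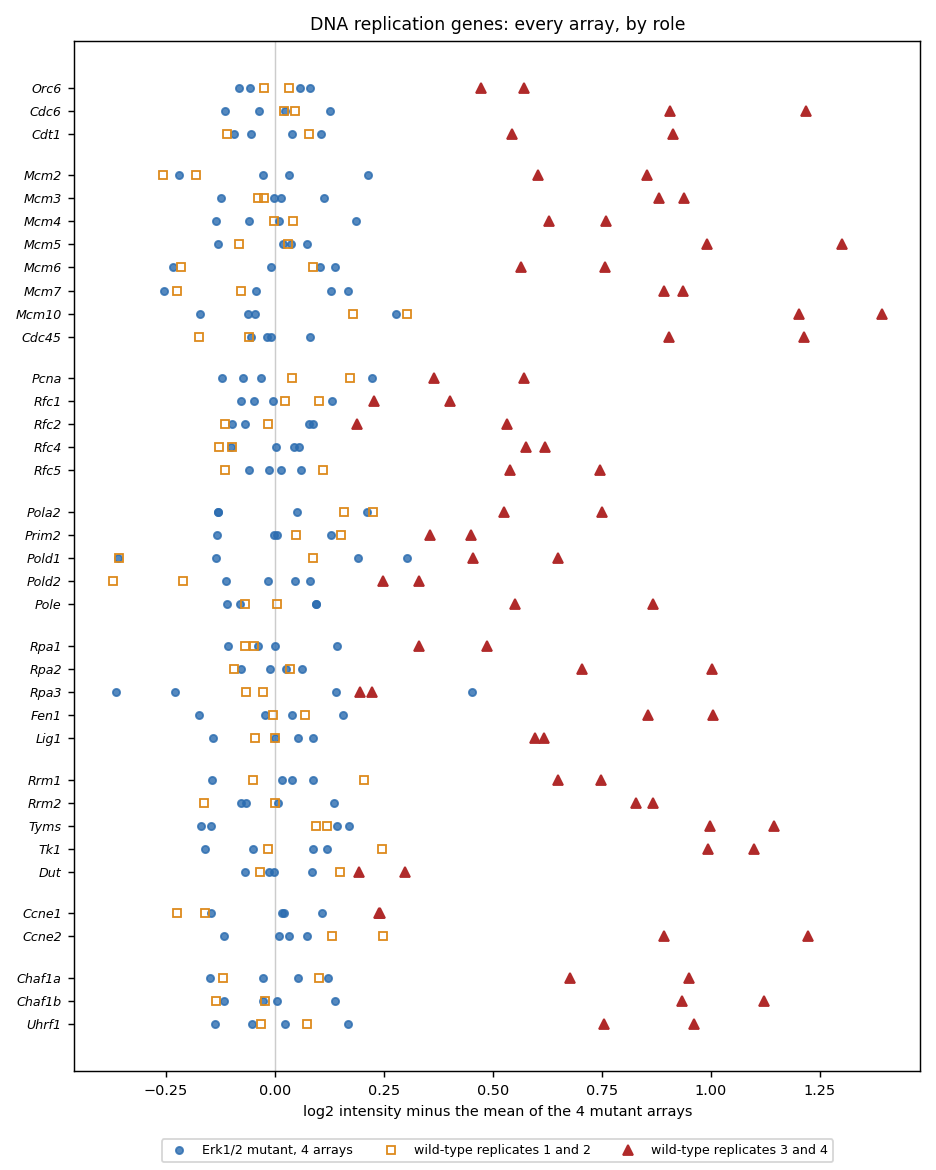
Log2 intensity of each tested replication gene on every array, minus the mean of the 4 mutant arrays, with genes grouped by role from licensing at the top to chromatin copying at the bottom. Mutant arrays (blue) and wild-type arrays 1 and 2 (open orange) mix around 0 in most genes. In 3 genes both of these wild-type arrays lie below every mutant array, and in 1 both lie above (not counted over all features). Wild-type arrays 3 and 4 (red) lie to the right of all others in 35 of 36 genes.

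The fit was repeated without either pair. Without wild-type arrays 3 and 4, the 36 differences had a median of 0.02 (range -0.24 to 0.29), 15 were below 0 (48.5% of all features), and 0 passed the test (limma), with 1 at an unadjusted p under 0.05 (18.1% of all features). The median of all features was 0.01 in that fit, in which 2.41% were called in either direction. Without wild-type arrays 1 and 2, the median was -0.70 (range -1.30 to -0.21), and 29 of 36 were called lower and 0 higher, against 6.87% and 6.83% of all features. The 7 genes not called there were Rfc1, Rfc2, Pold1, Pold2, Rpa3, Dut and Ccne1. Because the pairs were seen in the data, the calls without arrays 1 and 2 describe these arrays and say nothing about the genotype. The same limit holds for the fit without arrays 3 and 4. In 35 of 36 genes arrays 3 and 4 stood above all others, so leaving them out had to raise those differences. The median of 0.02 in that fit, and its values for single genes, likewise say nothing about the genotype.

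**Figure D3:**
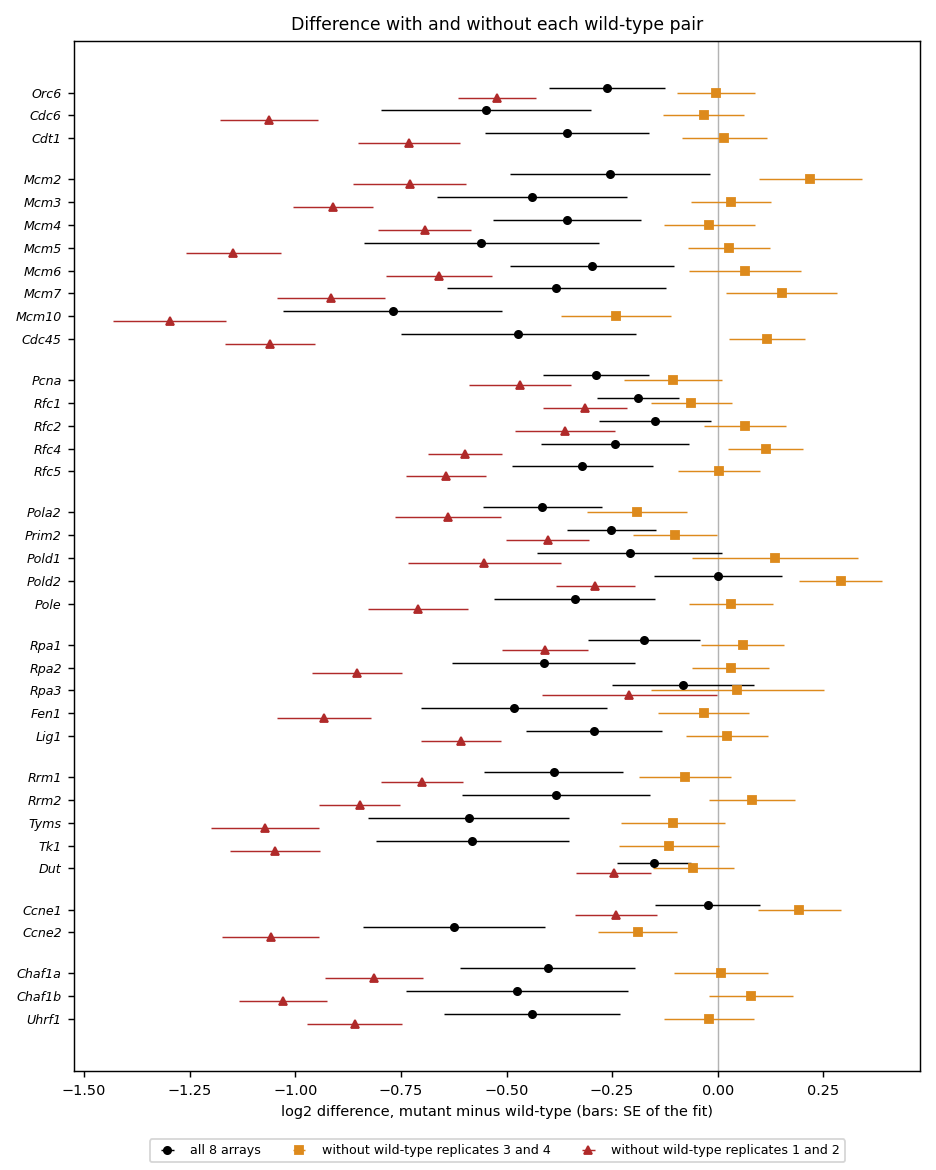
Log2 difference, mutant minus wild-type, of each tested replication gene with all 8 arrays (black), without wild-type arrays 3 and 4 (orange) and without wild-type arrays 1 and 2 (red); bars are the SE of the fit. The medians are -0.36, 0.02 and -0.70 in that order.

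Licensing was measured through 3 tested genes, Orc6, Cdc6 and Cdt1, whose differences ran from -0.55 to -0.26 with all arrays. Cdc6, the loader that brings MCM to ORC, had log2 intensities of 8.09, 8.23, 8.17 and 8.33 on the mutant arrays, against 8.22 and 8.25 on wild-type arrays 1 and 2, and 9.42 and 9.11 on wild-type arrays 3 and 4. The mutant arrays and wild-type arrays 1 and 2 overlapped, and arrays 3 and 4 stood apart above them. Its difference was -0.55 ± 0.25 (SE, n = 4 per group; limma adjusted p = 0.279), and -0.03 ± 0.10 without wild-type arrays 3 and 4. Cdt1, its partner in loading, stood at 9.55, 9.62, 9.46 and 9.42 on the mutant arrays, against 9.41 and 9.59 on wild-type arrays 1 and 2, and 10.43 and 10.06 on wild-type arrays 3 and 4. The groups overlapped again, and the difference of -0.36 ± 0.19 (adjusted p = 0.361) came to 0.02 ± 0.10 without arrays 3 and 4. Orc6, an ORC subunit, stood at 10.87, 10.85, 10.98 and 11.01 on the mutant arrays, against 10.96 and 10.90 on wild-type arrays 1 and 2, and 11.50 and 11.40 on wild-type arrays 3 and 4. It differed by -0.26 ± 0.14 (adjusted p = 0.343), and arrays 3 and 4 again stood above the rest. The other licensing genes, Orc1, Orc2 and Gmnn (which encodes geminin, the inhibitor of Cdt1), had only probes under the filter; their probe differences lay between -0.18 and 0.07 in a fit over all 25697 probes, with none called (1.15% of all probes were).

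All 8 tested helicase genes had wild-type arrays 3 and 4 above the other 6. All 8 tested members (Mcm2 to Mcm7, Mcm10 and Cdc45) had negative differences, with a median of -0.41, and none passed the test. Mcm10, which joins the helicase as origins fire, had 8.85, 9.18, 8.73 and 8.86 on the mutant arrays, against 9.09 and 9.21 on wild-type arrays 1 and 2, and 10.30 and 10.11 on wild-type arrays 3 and 4. Its difference of -0.77 ± 0.26 (adjusted p = 0.158) was the furthest from 0 among the 36 genes, and it stayed negative at -0.24 ± 0.13 without wild-type arrays 3 and 4, with no call. The gene's second probe above the filter gave -0.40 ± 0.16 in the fit over all probes.

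Mcm5 stood at 10.79, 10.83, 10.62 and 10.77 on the mutant arrays, against 10.67 and 10.79 on wild-type arrays 1 and 2, and 12.05 and 11.74 on wild-type arrays 3 and 4. Here wild-type arrays 3 and 4 cleared the highest of the other 6 arrays by 0.92, the widest gap of the 36 genes. The mutant and wild-type arrays 1 and 2 overlapped, with a difference of 0.03 ± 0.10 without arrays 3 and 4, while with all arrays it was -0.56 ± 0.28 (adjusted p = 0.318). With wild-type arrays 1 and 2 left out it was -1.15 ± 0.11 (adjusted p = 0.00128). Mcm4 had 11.56, 11.73, 11.41 and 11.49 on the mutant arrays, against 11.55 and 11.59 on wild-type arrays 1 and 2, and 12.18 and 12.31 on wild-type arrays 3 and 4. Its difference of -0.36 ± 0.17 (adjusted p = 0.312) came to -0.02 ± 0.11 without arrays 3 and 4. Cdc45, which travels with MCM at the fork, differed by -0.47 ± 0.28 with all arrays and by 0.12 ± 0.09 without arrays 3 and 4, so its sign turned, as did those of Mcm2, Mcm3, Mcm5, Mcm6 and Mcm7. For Cdc45 wild-type arrays 1 and 2 (7.895 and 8.011) lay below every mutant array, the lowest of which stood at 8.014.

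Mcm6 was read by 4 probes that did not agree. The probe that stood for the gene differed by -0.30 ± 0.20, and a second probe gave -0.20 ± 0.21. Both had wild-type arrays 3 and 4 above the other 6 arrays. In the second probe wild-type arrays 1 and 2 (9.09 and 9.14) also lay below every mutant array. Probe ILMN_1217331 had 10.47, 10.81, 10.32 and 10.28 on the mutant arrays, against 9.90, 6.36, 6.76 and 10.31 on wild-type arrays 1 to 4. It was high on 6 arrays and low on wild-type arrays 2 and 3, which belong to different pairs, with raw intensities of 131 and 146 there against 1131 to 1737 on the other 6 arrays. Its difference of 2.14 ± 0.72 was not called (adjusted p = 0.221), and it followed neither the other Mcm6 probes nor the pairs. The remaining probe lay under the filter. As the mean of the probes above the filter, Mcm6 differed by 0.55 (adjusted p = 0.395), the opposite sign, with ILMN_1217331 as the 1 probe of positive difference.

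**Figure D4:**
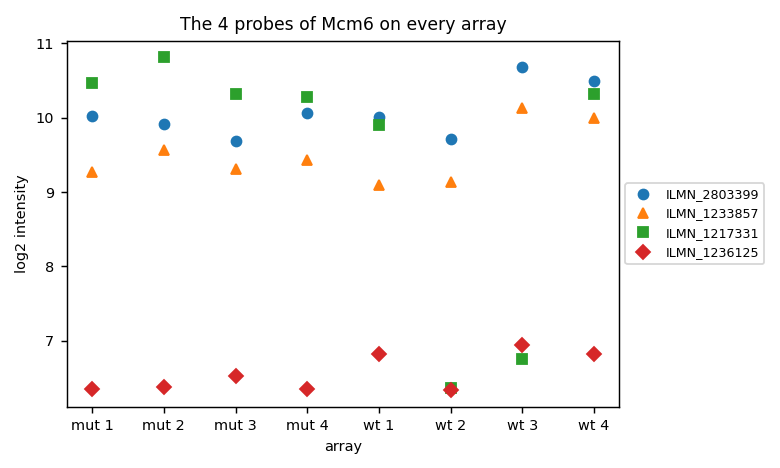
Log2 intensity of the 4 probes of Mcm6 on each mutant and wild-type array. Probe ILMN_1217331 (squares) lies at 6.36 and 6.76 on wild-type arrays 2 and 3 and between 9.90 and 10.81 elsewhere, while ILMN_2803399 and ILMN_1233857 are highest on wild-type arrays 3 and 4.

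The clamp and its loader gave smaller differences, -0.32 to -0.15 over 5 tested genes. Pcna, the sliding clamp that holds polymerases on DNA, stood at 7.54, 7.58, 7.49 and 7.84 on the mutant arrays, against 7.78 and 7.65 on wild-type arrays 1 and 2, and 7.98 and 8.18 on wild-type arrays 3 and 4. The mutant arrays overlapped wild-type arrays 1 and 2, and the difference was -0.29 ± 0.13 (adjusted p = 0.265). Rfc5, a subunit of the clamp loader, had 8.57, 8.60, 8.53 and 8.65 on the mutant arrays, against 8.70 and 8.47 on wild-type arrays 1 and 2, and 9.34 and 9.13 on wild-type arrays 3 and 4. Its mutant values had the smallest SD of the 36 genes (0.05), and its difference of -0.32 ± 0.17 (adjusted p = 0.339) came to 0.0020 ± 0.10 without arrays 3 and 4. Rfc2, another loader subunit, stood at 11.28, 11.43, 11.42 and 11.25 on the mutant arrays, against 11.23 and 11.33 on wild-type arrays 1 and 2, and 11.88 and 11.54 on wild-type arrays 3 and 4. Wild-type array 4 was only 0.10 above the highest mutant array, and the difference was -0.15 ± 0.13 (adjusted p = 0.595). Rfc1, the large subunit, differed by -0.19 ± 0.10 and Rfc4 by -0.24 ± 0.17.

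Among polymerases and primase, 4 of 5 tested genes had negative differences and the fifth, Pold2, an accessory subunit of polymerase delta, stood at 0.00 ± 0.15. Its wild-type arrays 1 and 2 (8.91 and 9.07) lay below all mutant arrays (9.17 to 9.36), and arrays 3 and 4 (9.61 and 9.53) above them. Its difference was 0.29 ± 0.10 without arrays 3 and 4 (limma adjusted p = 0.172), the highest of the 36 genes in that fit. Without arrays 1 and 2 it was -0.29 ± 0.09. Pola2, the regulatory subunit of the primase-bound polymerase alpha, had 8.47, 8.63, 8.29 and 8.29 on the mutant arrays, against 8.58 and 8.65 on wild-type arrays 1 and 2, and 9.17 and 8.95 on wild-type arrays 3 and 4. Its difference of -0.42 ± 0.14 (adjusted p = 0.16) kept its sign at -0.19 ± 0.12 without wild-type arrays 3 and 4. Pole, the catalytic subunit of the leading-strand polymerase, stood at 7.44, 7.64, 7.47 and 7.64 on the mutant arrays, against 7.48 and 7.55 on wild-type arrays 1 and 2, and 8.41 and 8.10 on wild-type arrays 3 and 4. That difference was -0.34 ± 0.19 with all arrays (adjusted p = 0.379) and 0.03 ± 0.10 without arrays 3 and 4. Pold1 had 9.80, 10.12, 10.23 and 9.57 on the mutant arrays, against 9.58 and 10.02 on wild-type arrays 1 and 2, and 10.58 and 10.39 on wild-type arrays 3 and 4. The lowest mutant array lay below both wild-type arrays 1 and 2 and the highest above both, and the difference was -0.21 ± 0.22 (adjusted p = 0.662). Prim2, the large primase subunit, differed by -0.25 ± 0.10 at one probe and by -0.25 ± 0.10 at the other. Pola1, Pole2 and Prim1 had only probes under the filter, with probe differences of -0.14 to -0.09.

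Single-strand binding and strand joining gave differences of -0.48 to -0.08 over 5 genes. Fen1, the nuclease that trims Okazaki fragments, stood at 10.26, 10.37, 10.04 and 10.19 on the mutant arrays, against 10.21 and 10.29 on wild-type arrays 1 and 2, and 11.22 and 11.07 on wild-type arrays 3 and 4. It differed by -0.48 ± 0.22 (adjusted p = 0.282) with all arrays and by -0.03 ± 0.11 without arrays 3 and 4. Rpa2, the middle subunit of RPA, had 8.29, 8.40, 8.36 and 8.43 on the mutant arrays, against 8.28 and 8.40 on wild-type arrays 1 and 2, and 9.37 and 9.08 on wild-type arrays 3 and 4. The 4 mutant arrays and wild-type arrays 1 and 2 overlapped, and the difference was -0.41 ± 0.22 (adjusted p = 0.343). Rpa1, the large subunit, stood at 11.56, 11.71, 11.53 and 11.46 on the mutant arrays, against 11.49 and 11.52 on wild-type arrays 1 and 2, and 12.05 and 11.89 on wild-type arrays 3 and 4. Its difference was -0.18 ± 0.13 (adjusted p = 0.518). Rpa3, the small subunit, had 10.53, 10.90, 10.40 and 11.21 on the mutant arrays, against 10.70 and 10.73 on wild-type arrays 1 and 2, and 10.96 and 10.98 on wild-type arrays 3 and 4. Its mutant arrays spanned the whole wild-type range (SD 0.37 in the mutant and 0.15 in the wild-type), and mutant array 4 was the highest of the 8 arrays. Lig1, the ligase that seals the fragments, differed by -0.29 ± 0.16.

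For nucleotide synthesis 5 of 5 differences were below 0, with a median of -0.39. Tyms, thymidylate synthase, had 10.51, 10.54, 10.20 and 10.22 on the mutant arrays, against 10.49 and 10.46 on wild-type arrays 1 and 2, and 11.52 and 11.37 on wild-type arrays 3 and 4. The mutant arrays overlapped wild-type arrays 1 and 2, and the difference was -0.59 ± 0.24 (adjusted p = 0.226), or -0.11 ± 0.12 without arrays 3 and 4. Of its other 4 probes, those above the filter gave -0.34 ± 0.18 and -0.21 ± 0.10. Tk1, the thymidine kinase of the salvage route, stood at 8.57, 8.82, 8.68 and 8.85 on the mutant arrays, against 8.71 and 8.98 on wild-type arrays 1 and 2, and 9.72 and 9.83 on wild-type arrays 3 and 4. Its difference was -0.58 ± 0.23 (adjusted p = 0.217), and -0.12 ± 0.12 without arrays 3 and 4. The ribonucleotide reductase genes Rrm1 and Rrm2 differed by -0.39 ± 0.16 and -0.38 ± 0.22. Dut, which encodes the dUTPase that keeps uracil out of DNA, differed by -0.15 ± 0.09, and its wild-type arrays 3 and 4 cleared the other arrays by 0.044.

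The E-type cyclins, which activate Cdk2 at the start of S phase, were both tested. Ccne2 had 7.35, 7.50, 7.47 and 7.54 on the mutant arrays, against 7.60 and 7.71 on wild-type arrays 1 and 2, and 8.69 and 8.36 on wild-type arrays 3 and 4. All mutant arrays lay below all wild-type arrays, and the difference was -0.62 ± 0.21 (adjusted p = 0.163); without arrays 3 and 4 it was -0.19 ± 0.09 (adjusted p = 0.336), still without overlap (14.1% of all features were separated this way there). Ccne1 stood at 7.66, 7.57, 7.57 and 7.41 on the mutant arrays, against 7.39 and 7.33 on wild-type arrays 1 and 2, and 7.79 and 7.79 on wild-type arrays 3 and 4. Here wild-type arrays 1 and 2 lay below all mutant arrays and arrays 3 and 4 above them, so that the difference of -0.02 ± 0.12 (adjusted p = 0.943) turned to 0.19 ± 0.10 without arrays 3 and 4. The difference between the 2 cyclins was not tested.

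Chromatin copying was measured through both tested subunits of the histone chaperone CAF-1 and through Uhrf1, which brings the maintenance methyltransferase to new DNA. Chaf1b had 8.94, 9.20, 9.03 and 9.07 on the mutant arrays, against 9.04 and 8.92 on wild-type arrays 1 and 2, and 10.18 and 9.99 on wild-type arrays 3 and 4. Its difference of -0.48 ± 0.26 (adjusted p = 0.369) was 0.08 ± 0.10 without arrays 3 and 4 and -1.03 ± 0.10 without arrays 1 and 2. Uhrf1 stood at 11.18, 11.33, 11.02 and 11.11 on the mutant arrays, against 11.13 and 11.23 on wild-type arrays 1 and 2, and 12.12 and 11.91 on wild-type arrays 3 and 4. It differed by -0.44 ± 0.21 (adjusted p = 0.296) and by -0.02 ± 0.11 without arrays 3 and 4. Chaf1a, the large CAF-1 subunit, differed by -0.40 ± 0.21 with all arrays and by 0.0076 ± 0.11 without arrays 3 and 4.

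Other probes of the same genes were also read. Besides the 36 probes used, 14 lay above the filter, of which 12 had negative differences and 11 had wild-type arrays 3 and 4 above the other 6 arrays; the exceptions in sign were Mcm6 probe ILMN_1217331 and a Lig1 probe at 0.04. A second Rrm2 probe, for example, differed by -0.41 ± 0.25, and arrays 3 and 4 cleared the rest by 0.83. The 17 probes under the filter, where little signal stands over background, differed by -0.33 to 0.07, and 4 of them had that order. None of the 67 probes was called.

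Other genes of the pathway were taken from lists of 77 in all. Of 58 tested, 0 passed the test in either direction. Negative differences were found in 48 of the 58, against 49.6% of all features, and the median was -0.14. An unadjusted p under 0.05 (limma) was found in 16 of the 58, against 18.2% of all features. Wild-type arrays 3 and 4 were above the other 6 arrays in 32 of the 58, against 15.0% of all features. Of 21 other fork and origin genes, the nearest to a call were Pold3, a subunit of polymerase delta (-0.54 ± 0.16, adjusted p = 0.122), and Tipin, of the fork protection complex (-0.48 ± 0.15, adjusted p = 0.141). Of 23 other nucleotide genes they were Dctd, dCMP deaminase (-0.58 ± 0.14, adjusted p = 0.0653), and Umps, of pyrimidine synthesis (-0.48 ± 0.15, adjusted p = 0.139). Dctd stood at 9.36, 9.38, 9.54 and 9.09 on the mutant arrays, against 9.67 and 9.71 on wild-type arrays 1 and 2 and 10.17 and 10.13 on arrays 3 and 4. It was 1 of 8 among the 58 genes in which all mutant arrays lay below all wild-type arrays, against 5.67% of all features. Without wild-type arrays 3 and 4 Dctd differed by -0.35 (limma adjusted p = 0.191). Of 4 other chromatin genes the nearest to a call were the histone chaperones Asf1a (-0.25 ± 0.08) and Nasp (-0.32 ± 0.14). Of 10 E2F and Rb family genes they were Rbl1, which encodes p107 (-0.33 ± 0.11), and E2f5 (-0.35 ± 0.13). Without wild-type arrays 3 and 4 none of the 58 was called (2.41% of all features were). Without arrays 1 and 2 there were 21 lower and 1 (Impdh1) higher, against 6.87% and 6.83% of all features.

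Marker lists were set beside the same arrays. As the mean log2 intensity of each list, the replication genes stood at 9.14 to 9.31 on the mutant arrays, against 9.19 and 9.23 on wild-type arrays 1 and 2 and 10.00 and 9.86 on arrays 3 and 4. Of 18 listed mitosis genes 9 were tested, and all 9 had arrays 3 and 4 on top; their level was 9.42 to 9.68 in the mutant and 9.58, 9.60, 10.54 and 10.34 in wild-type arrays 1 to 4. Of 15 erythroid genes 8 were tested, of which 4 had arrays 3 and 4 above the other 6, at 7.74 to 7.97 in the mutant and 7.85, 7.68, 8.48 and 8.04 in the wild-type; Gata1, Epor and Hemgn were under the filter. The mean of the 13 tested sensory neuron markers of 17 was lowest on wild-type arrays 3 and 4, at 11.14 to 11.49 in the mutant and 11.34, 11.28, 10.99 and 11.06 in the wild-type. Of these 13 markers, 5 had arrays 3 and 4 below the other 6 arrays and 0 had them above. Over all features, 1388 of 9664 had arrays 3 and 4 below the other 6. Ntrk3 was higher on arrays 3 and 4 (9.81 and 9.52) than on wild-type arrays 1 and 2 (9.02 and 9.04). The 1 marker called was Tlx3, a transcription factor of sensory neurons (1.38% of all features were called higher). It was higher in the mutant (0.75 ± 0.12, limma adjusted p = 0.0109), also without arrays 3 and 4 (0.70, adjusted p = 0.0458). The part of red cells, of neurons, of litter or of slide position in the level of the replication genes was not tested.

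Glial markers did not share this order of arrays. As a list mean, the 7 tested of 13 stood at 7.83 to 8.04 on the mutant arrays, against 8.53, 8.53, 8.49 and 8.60 on wild-type arrays 1 to 4. Single genes differed between the wild-type pairs in both directions. Sox9 and Sox2 were higher on arrays 3 and 4 than on wild-type arrays 1 and 2. Fabp7, Dhh and Ngfr were lower there, and in Egr2 and Art3 the pairs overlapped. Of the 7, 2 were called lower, Egr2 and Art3, against 1.13% of all features. On the mutant arrays Egr2 stood at 6.39 to 6.49, under the filter level of 6.72. In 3 of the 7 all mutant arrays lay below all wild-type arrays (5.67% of all features). Fabp7, Sox9, Ngfr and Sox2 overlapped between the groups, and Sox2 differed by 0.03 ± 0.12. None of the 7 had arrays 3 and 4 above all others. The defining genes Sox10 and Erbb3 were not analysed here, and Foxd3 and Cdh19 were under the filter. Macrophage markers (8 tested of 11) stood at 8.39, 8.71, 9.05 and 7.55 on mutant arrays 1 to 4, against 7.73 to 7.78 in the wild-type, and none was called; over those 4 mutant arrays the replication genes stood at 9.21, 9.31, 9.14 and 9.21.

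**Figure D5:**
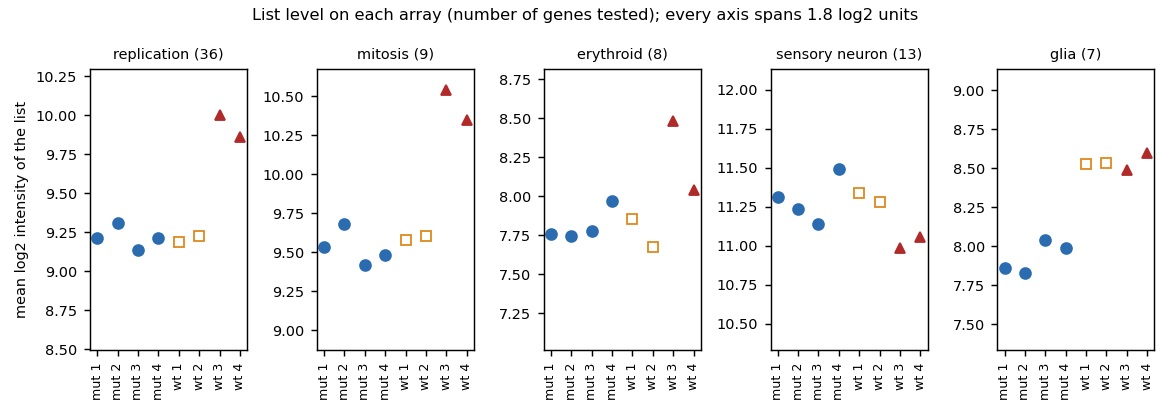
Mean log2 intensity of the tested genes of 5 lists on each array, mutant (blue) left of wild-type arrays 1 and 2 (open orange) and 3 and 4 (red). As list means, replication and mitosis genes are highest on wild-type arrays 3 and 4, and sensory neuron markers are lowest there. The mean of the glial markers is lower on all mutant arrays, though only 3 of the 7 genes are separated in this way.

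Under other scalings the count of this order of arrays was read again. Wild-type arrays 3 and 4 were above the other 6 arrays in 35 of 36 replication genes on the authors' deposited log2 table. There 1452 of 9663 features had this order. After scaling by the median of each array it was found in 34 of the genes (1407 of 9666 features). On the raw intensities with no normalization it was found in 33 (1059 of 9664 features).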

How the data were processed

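Per the labels' protocols, total RNA of 8 samples was extracted with Trizol and a column kit and labelled with biotin for Illumina bead arrays; the submitters' processing notes name BeadStudio, with no version or settings. The deposited intensity table has 25697 probes with no background subtracted (lowest value 80.3), no detection p-values and no control probes. The authors' deposited log2 table equals log2 and quantile normalization of it (largest difference 5.0e-09; its scale and direction are thus known) and served as an alternative. With limma 3.58.1 (R 4.3.3), intensities were background-corrected (normexp, offset 50), quantile normalized and log2 transformed; dim probes' differences are drawn towards 0 by the offset. Probes above the median mean intensity (12848) were kept, and the probe with the highest mean stood for each gene, leaving 9664 features (8935 named genes). Of all probes, 23978 have 1 gene symbol, updated through Entrez identifiers to GRCm38.p6 symbols, and 1719 are unnamed here. limma (lmFit, eBayes, two-sided, no covariate) was fitted over all features, mutant minus wild-type, with Benjamini-Hochberg adjustment and a threshold of 0.05; probe values come from the same fit over all probes. The functions were tested on simulated data. The deleted genes were not analysed here, which leaves the genotype labels unchecked. Nothing says that samples came from separate animals, so p-values measure the spread between these samples, which may be partly technical, and the number of arrays limits the precision. Members and lists were chosen with earlier results of these data known. Values on every array are given for the 2 largest differences and the brightest probe of each role group; Rpa3, Dctd and the Mcm6 probes were added after their values were seen. From each other pathway list come the 2 genes with the smallest adjusted p. Alternatives were other normalizations and filters, probe averaging, an intensity trend, array weights, a replicate block, other thresholds, and leaving out arrays.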

Additional observations from a re-analysis of the deposited data

How the results depend on the processing

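The count of replication genes called was 0 lower and 0 higher under each alternative, leaving out any single array included, with 1 exception, 29 lower without wild-type replicates 1 and 2, and their median difference moved between -0.70 and 0.02. Over all features, 109 were called lower and 133 higher; the counts were 199 and 62 with median scaling only (which moved the median of all features to -0.06), 60 lower with the filter at the upper quartile, 214 higher with array weights, 48 and 42 with the replicate block, 664 and 660 without wild-type replicates 1 and 2, 217 and 271 at an adjusted p under 0.10, and, leaving out 1 array, 41 to 104 lower and 34 to 122 higher, with the lowest counts without mutant replicate 1 (41 and 34), mutant replicate 2 (47 and 40) and wild-type replicate 4 (54 and 45), then wild-type replicate 3 (75 and 69) and mutant replicate 3 (84 and 86). Same-numbered mutant and wild-type arrays did not deviate together over all features (r = -0.28 to -0.051). Such a check could miss a weak tie between same-numbered arrays, so it does not settle whether they are paired. The replicate block changed no call of a replication gene. Without wild-type replicates 3 and 4, 20 differences turned positive, with no call: Mcm2 (0.219), Ccne1 (0.193), Mcm7 (0.151), Pold1 (0.135), Cdc45 (0.116), Rfc4 (0.113), Rrm2 (0.0809), Chaf1b (0.0784), Mcm6 (0.0643), Rfc2 (0.0639), Rpa1 (0.0587), Rpa3 (0.0464), Pole (0.0317), Mcm3 (0.0313), Rpa2 (0.0301), Mcm5 (0.0263), Lig1 (0.0219), Cdt1 (0.0158), Chaf1a (0.00762) and Rfc5 (0.00201). Other turns of sign were all uncalled: Mcm6 as the mean of its probes (0.548), Pold2 without background correction and on the authors' deposited table (-0.00154 each), with median scaling (-0.0783), without wild-type replicates 1 and 2 (-0.29) and without 1 array (-0.123 to 0.111), Ccne1 with array weights (0.00283) and without 1 array (-0.107 to 0.0487), and Rpa3 without 1 array (-0.232 to 0.0397). Pold2, just above 0 with all arrays, stood at 0.29 without wild-type replicates 3 and 4. The cause of these turns of sign was not tested. The filter at the upper quartile left 26 of the 36 genes. Genes under the filter, where signal stands little over background, and the wide spread of the wild-type arrays limit what can be called.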
